A study of Mus musculus with 2 samples.

Results

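The 34 genes described here encode proteins of DNA replication (15 genes) and of mitosis (19 genes). They were taken by symbol from the gene tables of both libraries, which held all 34 among 27998 genes. The replication genes were Mcm2 to Mcm7, Cdt1, Gins2, Pcna, Tyms, Rrm1, Rrm2, Ung, Uhrf1 and Tcf19. The mitosis genes were Cdk1, Ccna2, Ccnb1, Ccnb2, Plk1, Aurkb, Birc5, Pbk, Cenpe, Spc24, Kif22, Nusap1, Ckap2l, Stmn1, Ube2c, Cdca3, Mki67, Top2a and H2afx.

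The study sequenced single CD45+ cells, that is leukocytes, sorted from subcutaneous tumours of C57BL/6 mice. Each mouse had received 50000 cells of MC38-GFP+, a mouse colon adenocarcinoma line, and antibody against the inhibitory receptor PD-1 which was given at days 12, 15, 18 and 22 in amounts of 100 ug that the labels call sub-optimal. One library came from the group labelled non-responder and 1 from the group labelled responder, and both carried the same tumour line and treatment. There was no untreated library, and how many mice stood behind each library is not stated in the labels. A difference below therefore separates 2 libraries, without a replicate check, and every interval is a 95% interval that covers counting error only.

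A dividing cell first licenses its origins of replication, opens them with the MCM helicase and copies its DNA behind the PCNA clamp, while nucleotide synthesis is raised to feed the polymerases. After replication, cyclin-bound CDK1 and the Polo and Aurora kinases condense the chromosomes, build the spindle and divide the cell, and ubiquitin-driven proteolysis ends mitosis. Transcripts of the replication genes are in general driven by E2F factors from late G1 onwards, and those of the mitotic genes by factors that act at CHR and CCAAT elements from G2 onwards. Tumour macrophages are known both to arise from blood monocytes and to divide in place.

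The non-responder library held 2565 cells after filtering, with a median of 11752 unique molecular identifiers (UMIs, counted molecules) per cell, and the responder library held 4376 with a median of 10043. Clusters were made without the 34 genes and the other listed cell cycle genes, and were named from marker genes. Macrophage-like cells made up 2309 (90.02%) and 4155 (94.9%) cells of the non-responder and responder libraries, T cell-like cells 64 and 92, NK cell-like cells 21 and 4, dendritic-like cells 62 and 9, and non-immune cells 20 and 22. Droplets with both T cell and macrophage markers (22 and 89) were kept apart. A cluster led by S100a8 and S100a9, with 67 and 5 cells, stayed unnamed. The libraries shared 14 barcodes.

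Promoters are shown first, since many of the genes were read together in the same cells below and since their start regions held different motifs. The RefSeq promoter table of GRCm38.p6, with windows from 250 bases before to 50 bases after a transcript start, matched 26 of the 34 genes, 13 of each kind, with 28 windows since Mcm7 and Uhrf1 have 2 each. An E2F-type motif (the word TTCCCGC, the word TTGGCGC, the word TTCGCGC or the word TTGCCGC, on either strand) lay in 9 of 13 replication promoters, in 3 of 13 mitosis promoters and in 9.57% of all 32851 windows. A CHR-type motif (the word TTTGAA or the word TTCGAA, on either strand) lay in 2 of 13 replication promoters, in 9 of 13 mitosis promoters and in 19.2% of all windows. The CCAAT pentamer, on either strand, lay in 10 and 11 of 13 and in 37.4% of all windows. All 9 mitosis promoters with a CHR-type match also held CCAAT, which 7.52% of all windows did. Such a match is a description of letters and not a shown binding site, and letters of different E2F-type words can overlap. The promoters printed are those of the most counted genes in macrophage-like cells that held a match, 3 of each kind. They are Mcm3 (minus strand, chr1:20820263-20820562), Mcm6 (minus strand, chr1:128359656-128359955) and Mcm5 (plus strand, chr8:75109259-75109558), with E2F-type matches in capitals, then Ube2c (plus strand, chr2:164769679-164769978), Cdca3 (plus strand, chr6:124829926-124830225) and Top2a (minus strand, chr11:99024140-99024439), with CHR-type matches in capitals.
Mcm3: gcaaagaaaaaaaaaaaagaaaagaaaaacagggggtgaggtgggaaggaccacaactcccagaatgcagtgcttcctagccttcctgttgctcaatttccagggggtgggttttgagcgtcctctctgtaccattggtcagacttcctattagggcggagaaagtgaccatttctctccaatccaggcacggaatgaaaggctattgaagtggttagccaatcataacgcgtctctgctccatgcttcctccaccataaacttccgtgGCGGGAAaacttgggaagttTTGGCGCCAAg
Mcm6: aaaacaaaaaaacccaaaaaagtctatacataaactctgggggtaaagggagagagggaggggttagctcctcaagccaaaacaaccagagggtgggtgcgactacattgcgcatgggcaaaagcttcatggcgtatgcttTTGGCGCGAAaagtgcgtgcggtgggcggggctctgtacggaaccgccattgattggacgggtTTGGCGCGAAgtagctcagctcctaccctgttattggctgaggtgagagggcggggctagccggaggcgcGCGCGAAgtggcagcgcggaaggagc
Mcm5: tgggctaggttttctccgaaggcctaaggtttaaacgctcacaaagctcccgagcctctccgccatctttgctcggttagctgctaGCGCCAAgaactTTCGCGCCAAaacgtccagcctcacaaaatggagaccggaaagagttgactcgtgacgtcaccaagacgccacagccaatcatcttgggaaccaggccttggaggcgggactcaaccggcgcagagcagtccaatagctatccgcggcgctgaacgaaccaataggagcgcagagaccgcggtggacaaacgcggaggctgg
Ube2c: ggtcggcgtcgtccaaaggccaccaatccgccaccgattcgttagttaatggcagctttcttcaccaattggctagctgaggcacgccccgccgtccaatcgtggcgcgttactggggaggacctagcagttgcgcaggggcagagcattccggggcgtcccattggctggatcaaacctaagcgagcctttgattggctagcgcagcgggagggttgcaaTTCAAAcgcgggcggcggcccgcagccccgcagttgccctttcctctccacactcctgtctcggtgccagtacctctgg
Cdca3: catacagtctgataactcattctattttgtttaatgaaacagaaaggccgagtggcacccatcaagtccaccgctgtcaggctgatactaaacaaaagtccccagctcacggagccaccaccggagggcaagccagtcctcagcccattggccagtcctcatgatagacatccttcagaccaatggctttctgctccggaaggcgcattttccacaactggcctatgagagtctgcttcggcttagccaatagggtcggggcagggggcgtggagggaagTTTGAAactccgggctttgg
Top2a: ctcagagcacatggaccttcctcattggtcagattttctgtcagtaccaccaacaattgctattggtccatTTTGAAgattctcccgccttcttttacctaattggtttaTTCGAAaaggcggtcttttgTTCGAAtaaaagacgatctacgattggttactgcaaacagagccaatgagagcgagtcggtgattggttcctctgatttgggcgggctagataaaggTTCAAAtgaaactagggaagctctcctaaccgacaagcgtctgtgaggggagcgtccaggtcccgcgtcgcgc
The Mcm6 window held 5 E2F-type matches, and those of Mcm3 and Mcm5 held 3 each. The Top2a window held 4 CHR-type matches, and those of Ube2c and Cdca3 held 1 each.

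Cells that expressed many of the genes were counted by lineage next. Each cell was thinned to 3000 UMIs, and it was called S-type with UMIs of at least 4 different replication genes and mitosis-type with UMIs of at least 4 different mitosis genes, so that a cell could be both. Of the macrophage-like cells, 256 of 2307 (11.1%, 9.84 to 12.4) were S-type in the non-responder library and 350 of 4066 (8.61%, 7.76 to 9.51) in the responder library. Mitosis-type cells were 391 of 2307 (16.9%, 15.4 to 18.5) and 591 of 4066 (14.54%, 13.5 to 15.7). The share was lower in the responder library for both calls, by a ratio of 0.776 for S-type and 0.858 for mitosis-type, and the counting intervals of the libraries overlapped for the mitosis call only. Different macrophage clusters held most of the cells in each library, as described below. A planned weighting that counts the 4 clusters shared by both libraries equally turned the S-type ratio to 1.40. The smaller side of these clusters had 22 to 39 cells. A cluster with 3 non-responder and 428 responder cells was among those left out. Its leading genes were largely of the 34, with H2afx, Stmn1, Top2a, Birc5, Spc24, Cdca3 and Ube2c. These genes had not been used to make the clusters. With shared clusters made without genes that follow the 34 genes, the S-type shares were 3.16% and 3.13%. Those 4 clusters held only 1091 of the 2307 non-responder and 938 of the 4066 responder cells. The clusters M0 and M1, described below, were not among them. Over all macrophage-like cells without thinning, the S-type share was 35.4% and 25.3% and the mitosis-type share 28.8% and 22.5%.

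The same calls were made in the smaller lineages. S-type T cell-like cells were 10 of 64 (15.6%, 7.76 to 26.9) in the non-responder library and 7 of 77 (9.09%, 3.73 to 17.8) in the responder library, and mitosis-type T cell-like cells were 5 of 64 (7.81%) and 5 of 77 (6.49%). Unthinned, S-type T cell-like cells were 25% and 12.0%. Thinned to 5000 UMIs, which kept only 33 and 16 of these cells, the order of the libraries turned, with 33.3% and 43.8% S-type. At the main thinning depth, T cell-like cells were called S-type more often than mitosis-type in both libraries. They had 2 and 1.4 S-type cells per mitosis-type cell, where macrophage-like cells had 0.655 and 0.592. This T cell-like order rests on 10 against 5 and 7 against 5 cells, and it turned with cells thinned to 2000 UMIs. There 4.69% and 3.26% were S-type, below the lowest mitosis-type shares of T cell-like cells in any setting, 6.25% and 3.90%. NK cell-like cells of the non-responder library were S-type in 3 of 21 and mitosis-type in 3 of 21, and dendritic-like cells in 5 and 6 of 62. The responder library held too few of both for a share to be read, with 4 NK cell-like and 9 dendritic-like cells. Mitosis-type cells were most frequent among the non-immune cells, with 10 of 20 (50%, 27.2 to 72.8) and 12 of 19 (63.2%, 38.4 to 83.7), and S-type cells were 7 of 20 and 6 of 19. Among classes with at least 20 cells, the lowest share stood in the unnamed S100a8 cluster, where 2 of 67 non-responder cells (2.99%, 0.364 to 10.4) were S-type and 2 of 67 mitosis-type, at a median of 7620 UMIs. No class could be taken to lack these genes, so the unnamed cluster gives the lowest level seen and not a background.

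**Figure D1:**
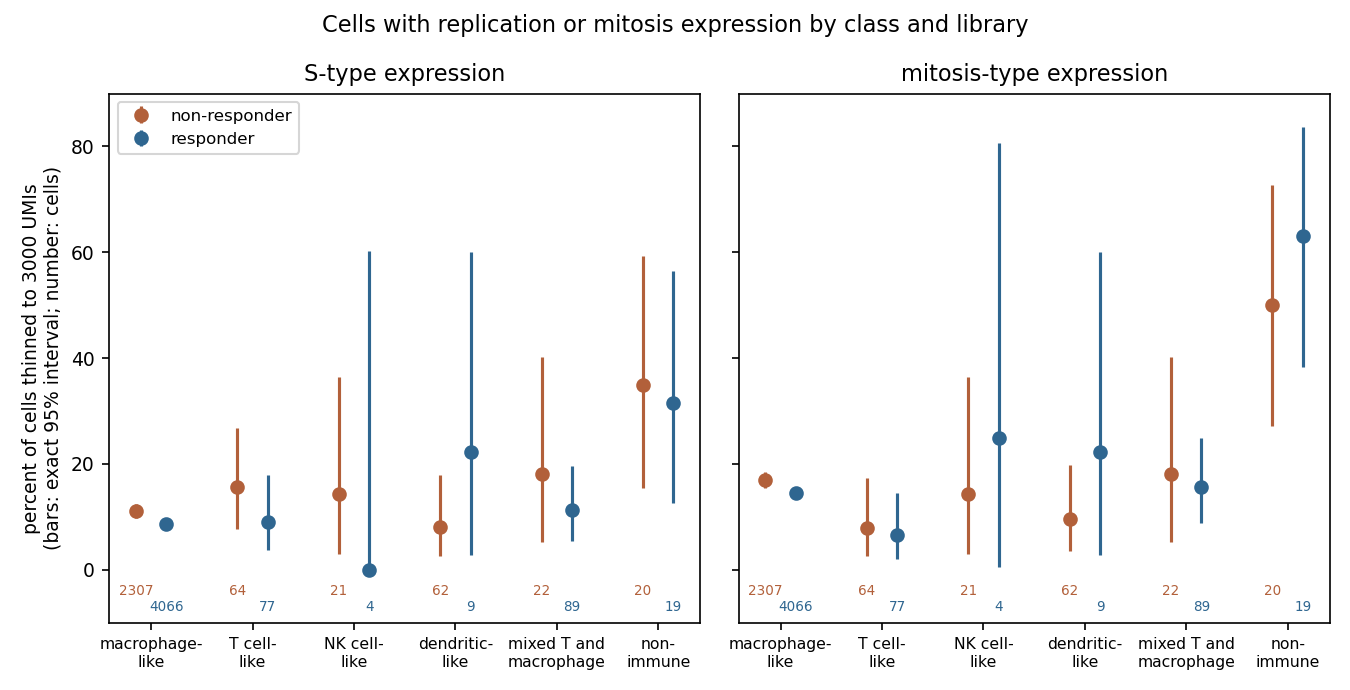
Share of cells with S-type (left) and mitosis-type (right) expression in each class, with the non-responder library in brown and the responder library in blue; bars are exact 95% intervals and the numbers below are cells. Non-immune cells sit highest, with 50% and 63.2% mitosis-type, and the intervals of the T, NK and dendritic classes are wide.

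Replication and mitosis expression met in the same macrophage-like cells. In the non-responder library 122 cells had both calls, 47.7% of the S-type cells, where independent calls would have given 43.4 cells, and in the responder library 173 had both (49.4%), against 50.9. The calls divide a graded measure, and cells next to the limit were many. With exactly 3 replication genes there were 154 and 234 cells and with exactly 4 there were 83 and 148, and for the mitosis genes the numbers were 77 and 117 with 3 and 59 and 86 with 4. Called cells also held more RNA. Macrophage-like cells with either call had medians of 16425 and 13630 UMIs before thinning in the non-responder and responder libraries, and cells with neither call had 11240 and 9708.5. The part of doublets in these values was not tested.

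To see at which stage each gene was read, each was left out of the call in turn, and its share of cells with a UMI was compared between cells called only S-type and cells called only mitosis-type by the other genes. Of the 15 replication genes, 13 were found more often in S-type only cells in both libraries. Mcm6, a subunit of the replicative helicase, was seen in 51.4% and 40.1% of S-type only cells and in 8.30% and 10.3% of mitosis-type only cells of the non-responder and responder libraries. Pcna, the clamp that holds polymerases on DNA, was seen in 59.2% and 45.4% against 23.9% and 19.2%. Ung, a glycosylase that removes uracil from DNA, was seen in 12.7% and 10.8% against 1.48% and 0.955%. The exceptions were Tyms, which makes thymidylate and stood higher in mitosis-type only cells in both libraries (22.5% and 27.9% against 18.8% and 17.0%), and Rrm2, a subunit of ribonucleotide reductase, whose order differed between the libraries. Both were most frequent in cells with both calls, Tyms in 53.9% and 48.3% and Rrm2 in 56.9% and 58.3%.

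All 19 mitosis genes were found more often in mitosis-type only than in S-type only cells in both libraries. Ube2c, the ubiquitin-conjugating enzyme of the anaphase-promoting complex, was seen in 62.5% and 60.4% of mitosis-type only cells and in 1.49% and 3.35% of S-type only cells. Birc5, the survivin subunit of the chromosomal passenger complex, was seen in 81.0% and 82.2% against 12.4% and 10.2%. Stmn1, which destabilises microtubules, separated the stages least, with 91.5% and 93.4% against 61.2% and 63.2%, and it was seen in 19.9% and 16.3% of cells with neither call. Pbk, Mki67 (the Ki-67 antigen of mitotic chromosomes), Aurkb (the kinase of the passenger complex), Nusap1, Cdk1, Stmn1 and Top2a (which untangles sister DNA) had higher shares in cells with both calls than in mitosis-type only cells in both libraries, with counting intervals apart in both for Pbk, Stmn1 and Top2a. Ccnb2, Birc5 and Ube2c had lower shares there, with intervals apart in both libraries, and those of Ccnb1 were apart in the responder library. H2afx had nearly equal shares. Ccnb1 was seen in 21.3% and 16.4% of cells with both calls and in 35.1% and 27.7% of mitosis-type only cells.

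The molecules of the mitosis genes lay mainly in called cells. Cells called from the other genes held 93.6% and 94.03% of the UMIs of Ccna2, the cyclin of S and G2 phase, 96.0% and 90.4% of those of Pbk, and 64.3% and 65.0% of those of Ccnb2, the lowest share among the mitosis genes in both libraries. Several replication genes were spread wider, with 41.0% and 38.6% of the UMIs of Pcna, 44.1% and 39.8% of those of Mcm6 and 34.7% and 35.0% of those of Cdt1 in called cells. Pcna had a UMI in 19.2% and 12.9% of the cells with neither call.

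**Figure D2:**
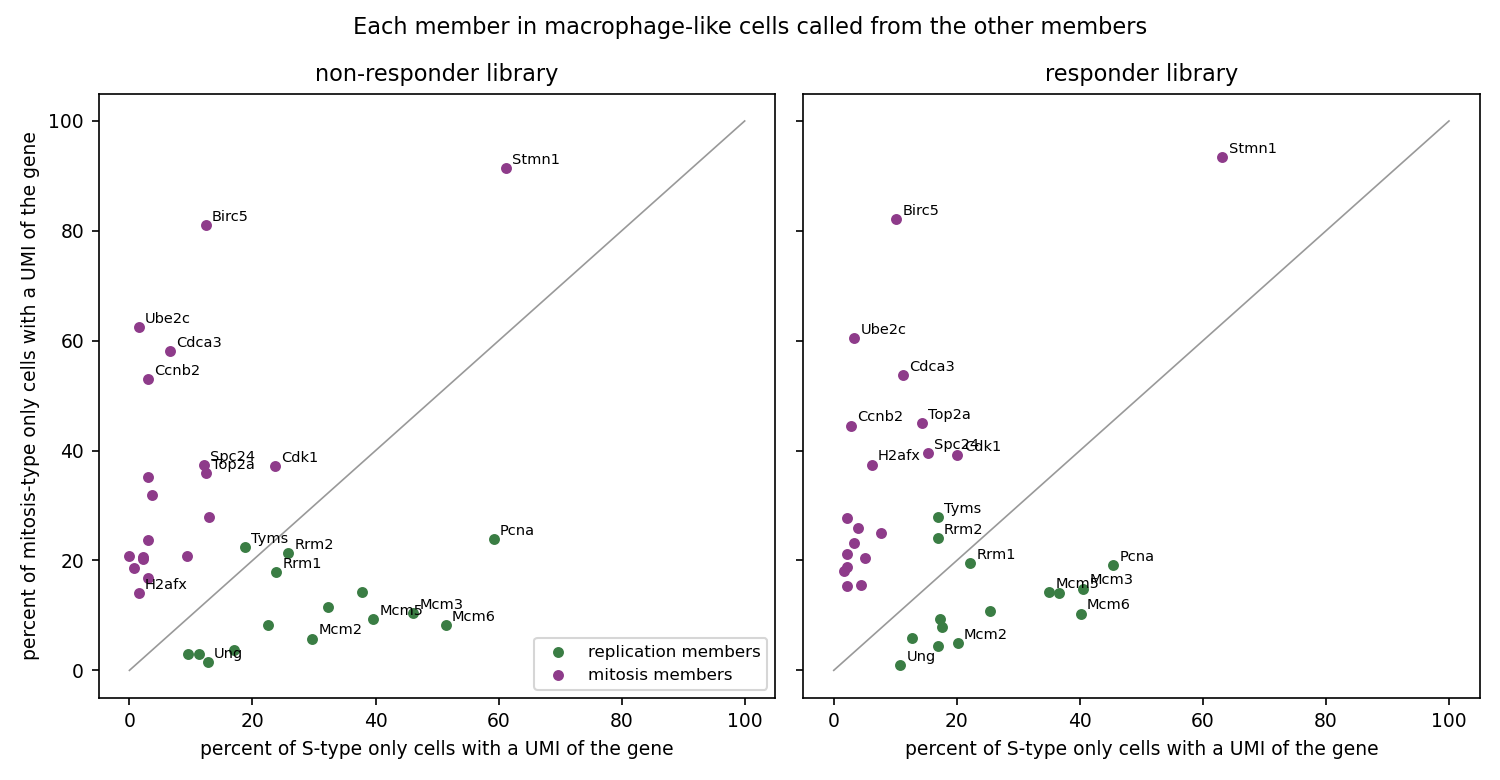
Each point is 1 gene in macrophage-like cells of the non-responder (left) or responder (right) library, with the percent of S-type only cells that held its UMI on the x axis and that of mitosis-type only cells on the y axis, the gene itself being left out of the call. The 19 mitosis genes lie above the line of equal shares and the replication genes below it, except Tyms in both libraries and Rrm2 in the responder library.

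Levels in macrophage-like cells were then compared between the libraries, as CPM, the summed UMIs of a gene scaled to the total of its class in that library. Of the 34 genes, 30 were lower in the responder library at any size, where 59.7% of the 10854 measured genes were. The median log2 ratio, responder over non-responder, was -0.37 for the replication genes and -0.31 for the mitosis genes, and -0.09 for all measured genes. The differences were small. A gene was called past 1.5-fold if its interval also excluded 0, and 3 of the 34 were called lower, against 11.0% of all genes, and 1 higher, against 7.77%. Scaling by the trimmed mean of M values (TMM) raised every log2 ratio by 0.12. With it 27 of 34 genes were lower, against 46.3% of all genes. Of the 34, 1 was then called lower, against 7.91%, and 1 higher, against 10.8%. With equal weight for the 4 clusters that both libraries share, 16 of 34 were lower, so the common direction did not hold there. With shared clusters made without genes that follow the 34 genes, a choice made after seeing the data, 29 of 34 were lower. No share of all genes is given for either weighting, so these counts cannot be read against one.

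All 6 helicase genes were lower in the responder library. Mcm2 had 32.9 CPM in the non-responder and 20.05 CPM in the responder library, a log2 ratio of -0.71 (-0.85 to -0.58), and was called lower. Mcm2 (ENSMUSG00000002870) lies at chr6:88883474-88898780 on the minus strand of GRCm38. Mcm4 had 19.6 and 13.8 CPM (-0.51), Mcm3 62.5 and 45.8 CPM (-0.45), Mcm6 59.7 and 44.9 CPM (-0.41), Mcm5 53.1 and 42.5 CPM (-0.32) and Mcm7 41.8 and 35.3 CPM (-0.24). The subunits of 1 complex thus ranged from -0.71 to -0.24, and the intervals of Mcm2 and Mcm7 did not overlap. Mcm7 overlaps Ap4m1, Cops6 and a microRNA cluster in the annotation, and the labels do not say whether the counting used strand.

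The loading and clamp genes did not move alike. Pcna, at chr2:132249162-132253314 on the minus strand, had 109.6 and 74.1 CPM, a log2 ratio of -0.56 (-0.64 to -0.49), just short of the fold called. Gins2, a subunit of the GINS complex that activates the helicase, had 43.3 and 32.7 CPM (-0.41). Cdt1, which loads the helicase onto origins, was one of the few genes above 0, with 16.5 and 19.2 CPM (0.22, 0.06 to 0.39). Cdt1 overlaps the model Gm20388 on the same strand, so reads of Cdt1 may be shared with that model. Gins2 overlaps it on the other strand only, and sharing of reads was not tested. Among the nucleotide and repair genes Tyms had 54.7 and 39.8 CPM (-0.46), Ung 10.7 and 8.27 CPM (-0.37), Rrm1 41.8 and 32.4 CPM (-0.37) and Rrm2 50.9 and 41.4 CPM (-0.30). Uhrf1, which guides maintenance methylation to new DNA, had 19.0 and 15.3 CPM (-0.31). Tcf19, a putative transcription factor, was higher in the responder library, with 12.9 and 15.4 CPM (0.25, 0.06 to 0.43).

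Of the mitosis genes, the 2 called lower were Ccnb1 and Pbk. Ccnb1, at chr13:100778650-100786570 on the minus strand, encodes cyclin B1 and had 35.8 and 23.0 CPM, a log2 ratio of -0.64 (-0.77 to -0.52). Pbk, at chr14:65805837-65817822 on the plus strand, encodes a mitotic kinase and had 26.8 and 16.8 CPM (-0.68, -0.83 to -0.53). With TMM scaling these ratios were -0.52 and -0.56, which ends both calls, while Mcm2 stayed called at -0.59. The other cyclin and CDK genes were lower by less, Ccnb2 with 65.0 and 45.2 CPM (-0.52), Cdk1 with 64.2 and 51.7 CPM (-0.31) and Ccna2 with 17.5 and 14.9 CPM (-0.23).

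Plk1, the Polo kinase of mitotic entry, had 22.6 and 16.4 CPM (-0.46), and the passenger complex genes Birc5 and Aurkb had 147 and 121 CPM (-0.28) and 32.8 and 29.1 CPM (-0.18). Among the spindle and kinetochore genes, Ckap2l had 19.6 and 13.6 CPM (-0.53), Nusap1, which bundles microtubules, 28.4 and 19.9 CPM (-0.52), and Kif22, a motor that moves along spindle fibres with chromosomes, 22.2 and 15.6 CPM (-0.51). Stmn1 had 351 and 335 CPM (-0.07). The intervals of Cenpe, the kinetochore motor, and Spc24, of the NDC80 complex, included 0, with 20.01 and 20.05 CPM for Cenpe and 44.4 and 43.9 CPM for Spc24. Cdca3, a part of the ligase that removes Wee1, a kinase that restrains CDK1, had 82.7 and 59.8 CPM (-0.47) and Ube2c 106 and 90.4 CPM (-0.23). Mki67 had 33.8 and 24.4 CPM (-0.47), and Top2a, with 63.2 and 62.0 CPM, had an interval that included 0.

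**Figure D3:**
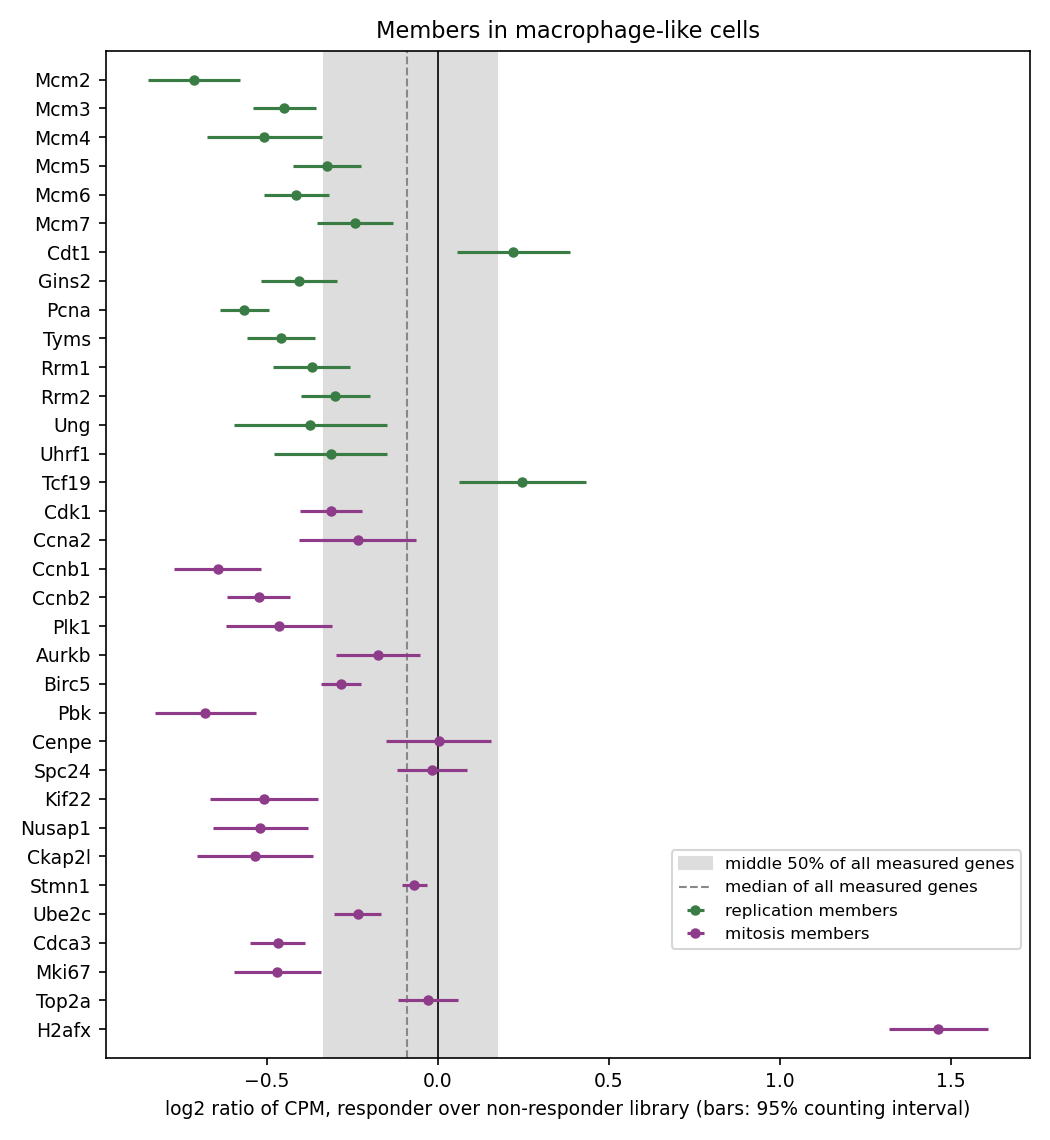
Log2 ratio of CPM, responder over non-responder library, for each gene in macrophage-like cells, with bars for the 95% counting interval, the grey band from the lower to the upper quartile of all 10854 measured genes and the dashed line for their median of -0.09. Of the 34 points 30 lie below 0, and H2afx stands alone at 1.46.

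H2afx was the one gene called higher in the responder library. It encodes H2AX, the histone variant that is phosphorylated around DNA breaks, and lies at chr9:44334694-44336077 on the plus strand, overlapped on the other strand by the model Gm44335. Its level in macrophage-like cells was 16.8 CPM (488 counts) in the non-responder and 46.3 CPM (1997 counts) in the responder library, a log2 ratio of 1.46 (1.32 to 1.61), and 1.58% of all measured genes had a higher ratio. The ratio ranged from 1.13 to 1.97 over 16 other ways of processing. H2afx was higher in each kind of cell. It was seen in 14.1% of 269 non-responder and 37.5% of 411 responder mitosis-type only cells, in 14.0% and 36.8% of cells with both calls, in 1.48% and 6.15% of S-type only cells and in 0.954% and 3.87% of cells with neither call. It had a stage order like that of the other mitosis genes in both libraries.

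The same direction held for H2afx in the other lineages with counts in both libraries. It had 5.23 and 27.3 CPM in T cell-like cells (2 and 11 counts, log2 ratio 2.38, 0.19 to 5.60), 25.8 and 127 CPM in dendritic-like cells (15 and 9 counts, 2.30, 0.93 to 3.59) and 28.7 and 127 CPM in non-immune cells (23 and 98 counts, 2.14, 1.47 to 2.86). In the mixed droplets it had 21.5 and 37.0 CPM, with an interval that included 0. NK cell-like cells held 6 counts in the non-responder library and none among the 4 cells of the responder library. In macrophage-like, T cell-like and non-immune cells alike, 35 of 4674 genes measured in all of them (0.749%) were called higher in the responder library, and of the 28 of the 34 genes measured there H2afx was the 1.

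The frequency of a gene within cells of the same call was lower in the responder library for most replication genes, 12 of 15 in S-type only cells, with a median over the genes of 25.8% against 20.1%, and 10 of 15 in cells with both calls. Mitosis genes were split, with 9 of 19 lower in mitosis-type only cells and medians of 31.9% and 27.7%. Among cells with neither call 12 of 15 replication genes and 12 of 19 mitosis genes were lower. The same counts over all genes were not taken within these groups of cells. By CPM, 59.7% of all measured genes were lower in macrophage-like cells as a whole.

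Macrophage-like cells were also divided into clusters without any gene whose counts followed the 34 genes. These clusters were nearly separate by library. The non-responder cells lay mainly in M0, led by Fcrls, Fn1 and Pf4, in M5, led by Mgl2, Ccl17 and Ccr2, and in M6, led by Mmp12, Mt2 and Cxcl3. The responder cells lay mainly in M1 to M4 and M7. Within the non-responder library M0 held 16.4% S-type and 23.0% mitosis-type cells of 1149, M5 held 10.9% and 16.2% of 549, and M6 held 1.69% (0.733 to 3.31) and 5.92% of 473. Within the responder library M1, led by Gbp2b, Cxcl13 and Xcr1, with H2afx also among its leading genes, held 12.7% and 24.0% of 972 cells, and M7, led by the interferon-induced genes Ifit3 and Isg15, held 11.4% and 17.9% of 458. Xcr1 of M1 and Ccl17 of M5 were also among the dendritic markers used to name the classes. M3 held 8.33% and 12.1%, M2 held 6.46% and 12.4%, and M4, led by Ly6i, Ifitm1, Plac8 and the monocyte gene Ly6c2, held 4.07% (2.78 to 5.73) and 5.77% of 762. Each library thus spanned a range from clusters with few called cells to clusters where 23.0% to 24.0% were mitosis-type.

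Only 4 of the 10 clusters had at least 20 thinned cells in each library. Among them the responder share of S-type cells was lower in 1 and higher in 3, and that of mitosis-type cells was lower in 3 and higher in 1. The smaller side had 20 to 38 cells, so these comparisons rest on few cells. M0 missed the limit with 18 responder cells, of which 7 (38.9%) were S-type and 7 mitosis-type. Its non-responder shares were 16.4% and 23.0%. M1 missed it with 18 non-responder cells, of which 0 were S-type and 2 (11.1%) mitosis-type. In M8 the mitosis-type share went the other way, with 3 of 8 non-responder and 16 of 78 responder cells. M8, with 78 responder cells, was still led in part by the mitotic genes Cdc20 and Plk1.

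**Figure D4:**
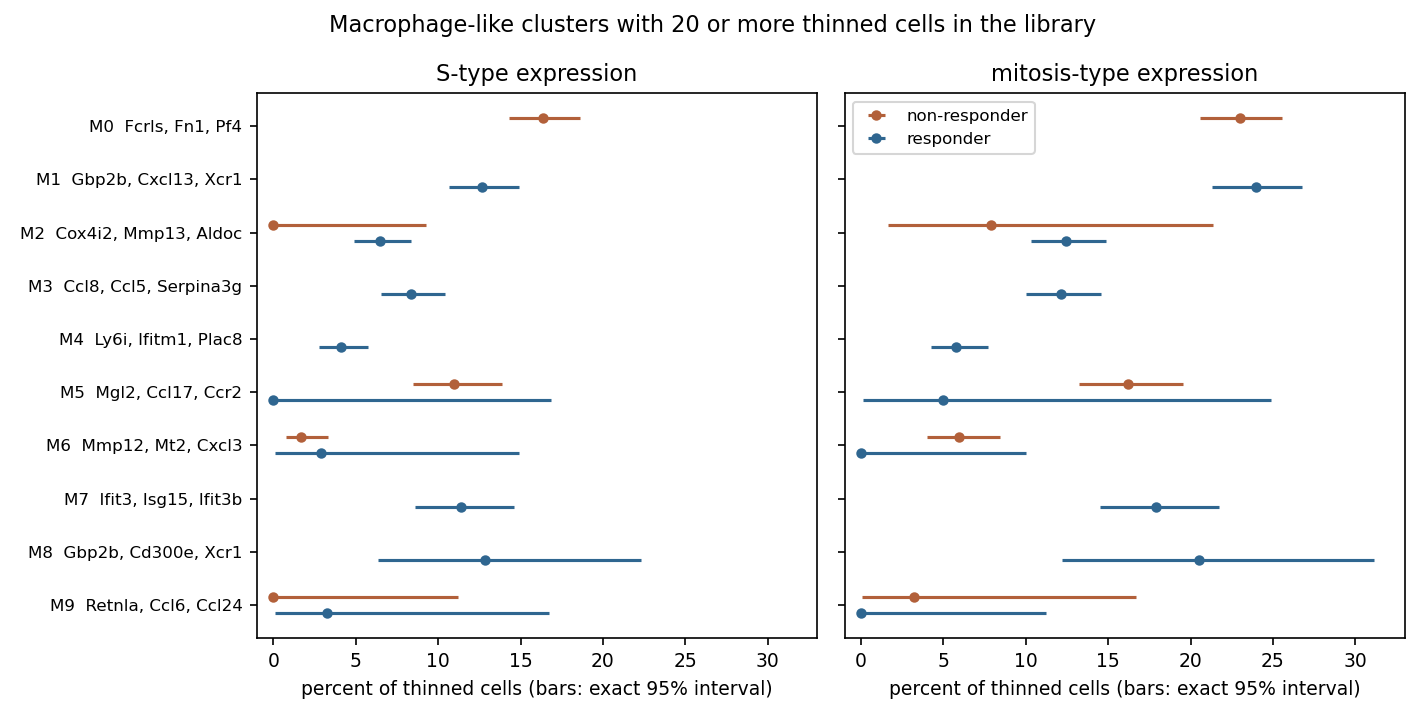
Percent of S-type (left) and mitosis-type (right) cells in each macrophage-like cluster with at least 20 thinned cells in the library, with exact 95% intervals, the non-responder library in brown and the responder library in blue. M0 and M1 hold the most mitosis-type cells (23.0% and 24.0%), M4 and M6 few (5.77% and 5.92%), and most clusters have 1 library only.

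Other macrophage genes were read in the called cells. Ly6c2, which marks classical monocytes, was seen in 1.95% and 5.14% of S-type cells of the non-responder and responder libraries, in 2.81% and 5.25% of mitosis-type cells and in 5.22% and 12.2% of cells with neither call. Its level was 6.51 and 38.1 CPM of the thinned counts in S-type cells and 90.3 and 159.8 CPM in cells with neither call. Arg1, arginase of suppressive macrophages, had 423 and 202 CPM of the thinned counts in S-type cells and 920 and 383 CPM in cells with neither call. H2-Ab1, an antigen-presenting class II gene, had 1383 and 11040 CPM in S-type cells and 3063 and 14311 CPM in cells with neither call. Spp1, osteopontin, had 969 and 54.3 CPM in S-type cells and 1754 and 87.6 CPM in cells with neither call, and Ccr2, a receptor of recruited monocytes, had 103 and 22.9 CPM against 111 and 44.4 CPM. By CPM of the thinned counts, Ly6c2, Arg1, H2-Ab1, Spp1 and Ccr2 were lower in S-type and mitosis-type cells than in cells with neither call in both libraries. The share of cells with a count of Spp1 was not lower in mitosis-type cells, at 57.0% and 11.7% against 56.8% and 9.31%. C1qa, of complement, was seen in at least 96.6% of cells of each kind. The receptor gene Csf1r, of the macrophage growth factor, was seen in 77.2% and 67.9% of mitosis-type cells and in 76.9% and 70.3% of cells with neither call, and the macrophage marker Adgre1 in 56.3% and 49.2% against 55.7% and 50.1%. Ccr2 was seen in 16.9% and 5.75% of mitosis-type cells against 19.6% and 9.67%, and the mannose receptor gene Mrc1 in 19.2% and 5.08% against 14.4% and 5.18%. Genes that differ between the libraries differed in called cells too: Cxcl9, a chemokine of interferon-stimulated macrophages, was seen in 7.93% and 62.4% of mitosis-type cells, and Spp1 in 57.0% and 11.7%.

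Other genes of the cell cycle were read from lists in macrophage-like cells. Their counts are read against the shares of all measured genes, of which 59.7% were lower at any size, 11.0% called lower and 7.77% called higher. Of 36 origin and fork genes 25 were lower in the responder library, with a median log2 ratio of -0.15 and 1 called lower, Orc2 of the origin recognition complex (12.3 and 7.74 CPM, -0.67). Cdc7 and Rfc4 followed with -0.56 and -0.53. Of 9 nucleotide supply genes 8 were lower, with a median of -0.38 and 2 called lower, Shmt1 of the folate cycle (5.34 and 2.71 CPM, -0.98) and Ctps, CTP synthase (8.64 and 4.84 CPM, -0.84). Nme1, a nucleoside diphosphate kinase, had -0.47. All 10 chromatin duplication genes were lower, with a median of -0.16 and none called, led by the histone chaperone gene Nasp (-0.51), Hells (-0.47) and Chaf1b (-0.34).

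Of 55 further genes of G2 and mitosis 48 were lower, with a median of -0.29, and 3 were called lower, Cdc25b (-0.76), Nuf2 (-0.64) and Ect2 (-0.60), where 11.0% of all genes were. These medians all lie below the -0.09 of all measured genes. The regulators upstream were mixed. Of 14 genes of the G1 to S step 7 were lower and 7 higher. Ccnd3, cyclin D3, was called higher (21.7 and 38.5 CPM, 0.83), and Cdk6 and Cdk2 were called lower (-0.70 and -0.60). Of the 11 measured genes of CDK inhibition and checkpoints 7 were lower, and Cdkn2b (-1.28) and Cdkn2a (-1.17), both at under 3 CPM, were called lower, followed by Cdkn2d at -0.47.

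In T cell-like cells, 28 of the 34 genes reached 10 counts. Of these 21 were lower in the responder library, against 44.3% of 5418 measured genes, and the medians were -0.30 for the replication and -0.37 for the mitosis genes, with 0.09 for all genes. The genes called lower were 4, against 4.69%. They were Mcm2 (75.8 and 34.7 CPM, log2 ratio -1.13, -2.16 to -0.16), Pcna (96.7 and 47.1 CPM, -1.04, -1.92 to -0.20), Cdca3 (73.2 and 19.8 CPM, -1.88, -3.23 to -0.71) and Kif22 (9 counts and 1, -3.25, -8.70 to -0.39). H2afx was the 1 called higher, against 8.53%. The classes differed in makeup, since the 67 cells of cluster L3, led by Nkg7, Gzmb and Cd8a, all came from the responder library. The 12 macrophage markers, summed, had 1150 and 2600 CPM in T cell-like cells and 48239 and 49064 CPM in macrophage-like cells, and their part in these values was not tested. In the mixed T cell and macrophage droplets 25 of 34 genes were lower in the responder library, against 49.1%, and 3 were called lower (Mcm6, Tcf19 and Ccnb2), against 5.23%, and none higher, against 5.29%. These droplets form different clusters, L0 with 1 non-responder and 89 responder droplets and L11 with 21 non-responder droplets only.

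Set against macrophage-like cells of the same library, T cell-like cells had higher CPM for most replication genes and lower CPM for most mitosis genes. CPM is relative to the total of a class. Median depths were 5059.5 and 3705 UMIs in T cell-like and 12020 and 10071 in macrophage-like cells. All 6 helicase genes were higher in T cell-like cells in both libraries, Mcm4 with 47.0 against 19.6 CPM in the non-responder and 29.7 against 13.8 CPM in the responder library (log2 ratios 1.27 and 1.11), and Mcm6 with 88.8 against 59.7 and 121 against 44.9 CPM (0.57 and 1.44). In all 11 of 15 replication genes were higher and 3 lower in both libraries, where 53.6% and 59.5% of all genes were higher. Of the replication genes 4 and 3 were called higher, against 12.9% and 15.8% of all genes. Of the 19 mitosis genes 14 were lower and 1 higher in both libraries, where 46.4% and 40.5% of all genes were lower, and 6 and 6 were called lower, against 13.1% and 11.6%. Birc5 had 83.6 against 147 and 66.9 against 121 CPM (-0.82 and -0.85). Aurkb had 4 counts in the non-responder T cell-like cells and none in the responder ones, where 29.1 CPM was its level in macrophage-like cells. Top2a did not follow, with 62.7 against 63.2 and 59.5 against 62.0 CPM. The 19 mitosis genes together had 938 and 716 CPM in T cell-like and 1201 and 1049 CPM in macrophage-like cells, and the 15 replication genes 810 and 647 against 629 and 481 CPM.

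Dendritic-like cells of the non-responder library were below macrophage-like cells for 30 of the 34 genes, where 57.2% of all genes were, 13 were called lower, against 13.0%, and none was called higher, against 8.13%. Cdk1 had 22.3 against 64.2 CPM (-1.52, -2.44 to -0.75), Ube2c 46.4 against 106 CPM (-1.20) and Top2a 30.9 against 63.2 CPM (-1.03). Plk1 had a single count. Uhrf1, Spc24, Mcm2 and H2afx stood above, each with an interval that included 0. NK cell-like cells of that library held 136 counts of the replication and 260 of the mitosis genes in 21 cells. In them 27 of 34 genes were lower than in macrophage-like cells, against 44.8% of all genes, 5 were called lower, against 12.2%, and 2 were called higher, against 8.41%. Those 2 were Mcm6 (97.2 against 59.7 CPM, 0.70) and Ube2c (161 against 106 CPM, 0.60), whose 43 counts lay in 14.3% of the 21 cells.

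The non-immune cells carried CD45 (Ptprc) at 3.75 and 9.06 CPM in the non-responder and responder libraries, against 129.7 and 179 CPM in macrophage-like cells, although the sort was for CD45. Of 9 fibroblast markers 7 had a count in each library, summed to 2310 and 1578 CPM, while 6 tumour epithelial markers were all at 0 in the non-responder library, and of them Cdh1 alone had a count in the responder library. Over both libraries only 3 of the 9 fibroblast markers reached 50 CPM and a count in at least 10% of the cells. The class was named by a rule that asked for at least 3 fibroblast markers among its 10 leading genes. The fibroblast counts thus partly restate that rule, and CD45 did not enter it. The identity of these cells was not settled by these markers. The macrophage markers summed to 896 and 1736 CPM in them. Their median depth was 32118.5 and 29277 UMIs.

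These cells held the highest levels of the mitosis genes, 2546 and 2687 CPM in sum, and 18 of the 19 were above macrophage-like cells in both libraries, where 54.2% and 54.9% of all genes were. In the non-responder library 14 were called higher, against 24.3% of all genes, and in the responder library 16, against 25.2%. Ube2c had 611 against 106 CPM (log2 ratio 2.52) and 601 against 90.4 CPM (2.73), Cdk1 180.0 against 64.2 and 173 against 51.7 CPM (1.49 and 1.75), and Top2a 197 against 63.2 and 269 against 62.0 CPM (1.64 and 2.12). Stmn1 was the exception, with 206 against 351 and 334 against 335 CPM. In the non-responder library 1 of the 20 cells, with 109221 UMIs, held 45.2% of all mitosis gene counts and the highest count of 14 of the 19 genes, such as 280 of the 489 counts of Ube2c. Without it the sum was 1617 CPM and 14 of the 19 genes were above macrophage-like cells.

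The replication genes of the non-immune cells differed between the libraries. They summed to 489 and 862 CPM, and 14 of 15 were higher in the responder library, against 48.9% of all genes, with 8 called higher, against 6.91%. The 8 were Mcm3, Mcm5, Mcm6, Mcm7, Cdt1, Pcna, Ung and Uhrf1. Pcna had 41.2 and 109 CPM (33 counts in 11 cells and 84 in 16; 1.40, 0.80 to 2.03), Mcm6 42.5 and 103.6 CPM (1.28, 0.69 to 1.91) and Cdt1 3.75 and 44.01 CPM (3 counts in 2 cells and 34 in 11; 3.55, 1.88 to 5.90). The 8 were called without the deepest non-responder cell as well. The S-type cells were 7 of 20 and 6 of 19.

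The direction of the mitosis genes between the non-immune cells of the libraries turned with the deepest non-responder cell. With it 12 of 19 were lower in the responder library, against 51.1%. Of the 19, 3 were called lower (Ccnb1, Plk1 and Nusap1), against 8.66%, and 2 higher (Stmn1 and H2afx), against 6.91%. Without it 17 of 19 were higher, against 49.2% of 7370 measured genes, and Pbk and Spc24 were lower. The 3 lower calls rested on that cell: Ccnb1 had 140.0 and 73.8 CPM (-0.92), of which 75 of 112 non-responder counts came from that cell, and 0.46 without it. Without the cell 8 mitosis genes were called higher, against 7.26% of all genes, and none lower, against 7.84%. H2afx had 2.55 then.

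**Figure D5:**
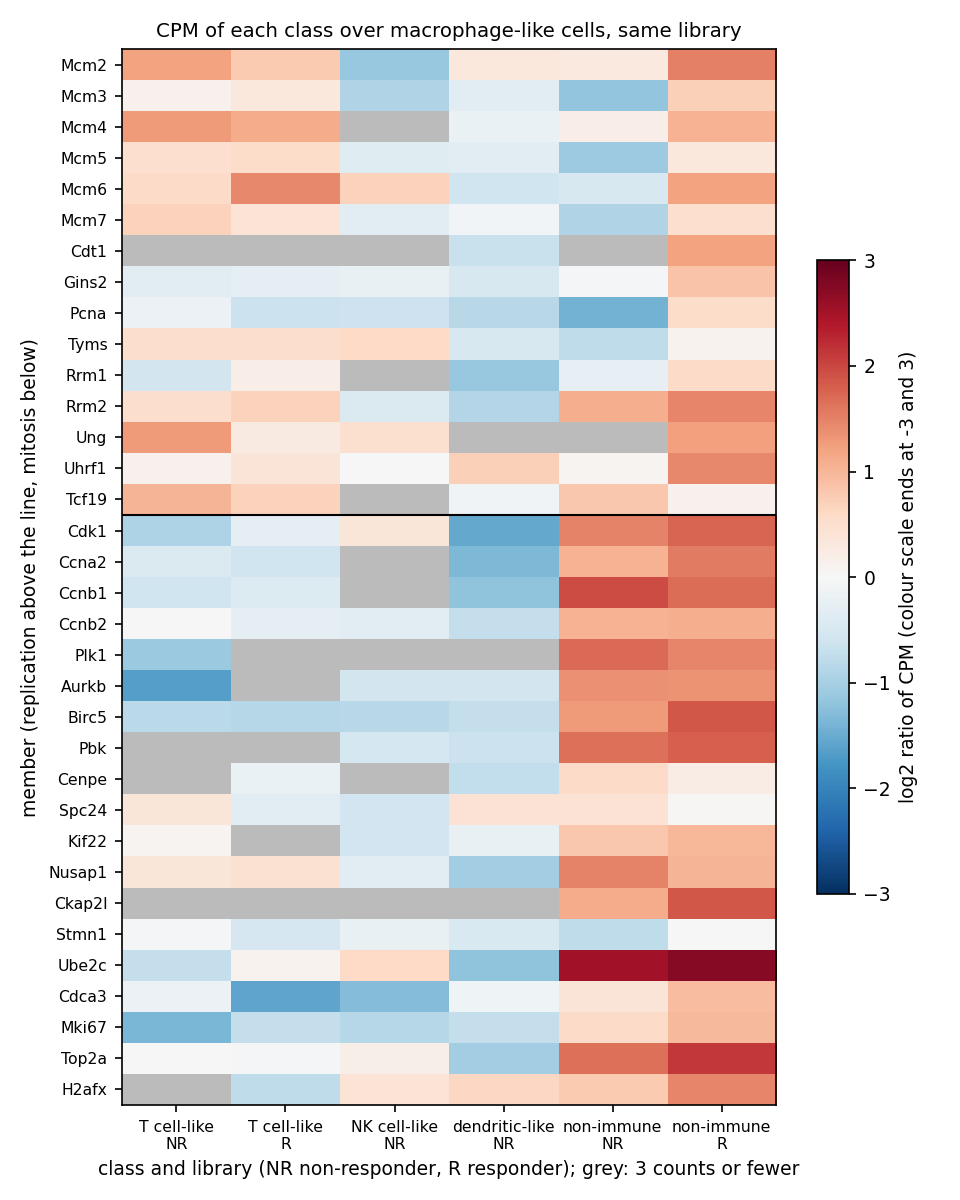
Log2 ratio of the CPM of each class over that of macrophage-like cells of the same library, from blue (lower) to red (higher), for each gene in rows; grey marks 3 counts or fewer. The T cell-like columns are red for the helicase genes Mcm2 to Mcm7 and mostly blue or grey for the mitosis genes, and the non-immune columns are red for 18 of the 19 mitosis genes.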

How the data were processed

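Single cells were measured with the 10x 3' v3 kit in 2 libraries, 1 per group. The deposited matrices hold UMI counts per gene and cell, which the authors made with Cell Ranger 1.1.0 on mm10, per the submitters' processing notes; the values are whole and not normalized. Barcodes with at least 500 genes and at most 10% mitochondrial counts were kept. Cells were clustered with scanpy 1.11.5 (2000 variable genes without 171 cell cycle genes, 30 components, 15 neighbours, Leiden resolution 1). No doublet caller was run. Shares used cells thinned to 3000 UMIs, which left out 2 non-responder and 107 responder cells, with exact Clopper-Pearson 95% intervals. Log2 ratios compare class sums, with a conditional exact binomial interval, for genes with at least 50 counts (10 in small classes). Called means past 1.5-fold with an interval that excludes 0. TMM factors came from edgeR 4.0.16. With 1 library per group there was no test. Total counts were 32032569 and 45866561 UMIs. Named genes were the 34 members (in small classes, those with at least 10 counts over both libraries), the 3 of each other list with the largest change, and 10 macrophage genes; Aurkb in T cell-like and Plk1 in dendritic-like cells were named after their values were seen. Members and lists were chosen with earlier results of these data known. The statistics were tested on simulated data. Coordinates are from GENCODE M21 on GRCm38.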

Additional observations from a re-analysis of the deposited data

Results flagged for a closer look

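Between the libraries, 9 genes had opposite directions in non-immune and macrophage-like cells, each with an interval that excluded 0 in both. The difference between the classes was not tested. The log2 ratios, responder over non-responder, in non-immune and then macrophage-like cells were 1.45 and -0.45 for Mcm3, 1.09 and -0.32 for Mcm5, 1.28 and -0.41 for Mcm6, and 1.17 and -0.24 for Mcm7. They were 1.40 and -0.56 for Pcna, 2.96 and -0.37 for Ung, and 1.05 and -0.31 for Uhrf1. Of the mitosis genes, Birc5 had 0.30 and -0.28 and Stmn1 had 0.70 and -0.07. The macrophage direction of 7 of them was not stable. It turned for Mcm5, Mcm6, Mcm7, Pcna and Stmn1 with equal weight of the shared clusters (0.0084, 0.14, 0.29, 0.063 and 0.41), for Mcm3, Mcm7 and Uhrf1 with shared clusters made without genes that follow the 34 genes (0.071, 0.10 and 0.33), and for Stmn1 with TMM scaling (0.052). It held in every setting run for Ung and Birc5. The non-immune values rest on 20 and 22 cells.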

How the results depend on the processing

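Shares below are given in the order S-type and mitosis-type of the non-responder, then of the responder library, in macrophage-like cells. With 3 distinct genes for a call they were 17.8%, 20.3%, 14.4% and 17.4%, and with 6 they were 4.55%, 11.9%, 3.10% and 10.6%. With cells thinned to 2000 UMIs they were 6.71%, 12.9%, 4.93% and 11.7%, with 5000 UMIs 18.9%, 20.1%, 15.5% and 17.3%, and with no thinning 35.4%, 28.8%, 25.3% and 22.5%. With 5 summed UMIs for a call the mitosis-type shares were 18.7% and 15.8%. Without the 5% of cells with the most UMIs the shares were 9.72%, 14.51%, 7.74% and 12.5%. S-type T cell-like cells of the non-responder library were 6.25% with 6 genes. With 2000 UMIs they were 4.69% and 3.26% of the libraries, and with 5000 UMIs 33.3% and 43.8%, where 25% of responder T cell-like cells were mitosis-type. At 5000 UMIs the responder share of T cell-like cells was thus the higher, among 33 and 16 cells.
With equal weight for the clusters that both libraries share, the non-responder shares were 6.65% and 9.09% and the responder mitosis-type share 7.13%. The S-type ratio was then 1.40, the median log2 ratios were 0.063 for replication and -0.024 for mitosis genes, and Pbk had 0.67. With shared clusters made without genes that follow the 34 genes, a choice made after seeing the data, the shares were 3.16%, 8.31%, 3.13% and 4.36%, the ratios 0.994 and 0.525, and the mitosis median -0.70. That setting leaves out M0 and M1 and rests on 1091 and 938 cells. With TMM scaling the replication median was -0.25. The cause of these changes was not tested. In all, 234 of 280 values of the 16 main results under an alternative stayed within their limits. Staying within them did not mean that a direction held. The ratios of the T cell-like shares ran from 0.478 to 1.31 for S-type and from 0.557 to 1.65 for mitosis-type. All 18 values of each were counted within. Of 544 values for single genes under an alternative 1 reversed a call, that of Pbk, and 88 moved, and 19 of the 34 genes changed sign at least once. The settings on shared barcodes, on the unnamed cluster, on clusters led by other markers and on the deepest non-immune cell were also chosen after seeing the data. No paired analysis was possible because each group has 1 library. The T, NK, dendritic and non-immune classes held 4 to 92 cells per library, and their intervals cover counting error only.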
